A study of Mus musculus with 10 samples.

Results

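The CCAAT/enhancer binding proteins (C/EBPs) are a family of transcription factors, and their mRNAs were followed here in primary mouse keratinocytes measured on Affymetrix mouse expression arrays. The members were chosen by gene symbol, as the 5 genes Cebpa, Cebpb, Cebpd, Cebpe and Cebpg, and not by any measured value. Of these, 4 were measured, among 18193 genes in all. Cebpe carries no probe set in the annotation used and is not analysed here. The family is represented by 8 of the 45101 probe sets on the array.

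Keratinocytes were prepared from newborn FVB mice, and 10 arrays fall into 4 conditions. Undifferentiated keratinocytes (2 arrays) were held at 0.05 mM calcium, at which the cells keep dividing. Differentiated keratinocytes (4 arrays) were moved to 0.4 mM calcium for 2 days. The A-C/EBP condition (2 arrays) used cells of a transgenic mouse that makes a dominant negative protein in keratinocytes, under tetracycline control, when doxycycline is withdrawn, followed by the same differentiation. A-C/EBP joins the leucine zipper of a C/EBP to an acidic stretch in place of the DNA-binding basic region, so that it pairs with C/EBP family proteins and keeps them off DNA. The 5-AZA condition (2 arrays) received 1 µM 5-azacytidine, an inhibitor of DNA methylation, and was differentiated. Both wild type and transgenic mice were used in the study, the labels do not give the genotype of the other 3 conditions, and no probe set is annotated to A-C/EBP itself. Separate cultures behind the replicates are not stated either, so the tests weigh differences against a spread between samples that could be purely technical. The A-C/EBP arrays are numbered 1 and 2 in their titles but carry the same number in their descriptions, so that these in particular are not shown to be separate cultures.

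Values are log2 levels, as deposited, averaged over the probe sets of a gene. A rise or a fall means that limma, fitted to all 10 arrays and 18193 genes, gave a Benjamini-Hochberg adjusted p under 0.05. With 2 to 4 arrays in a condition, the number of arrays sets the precision. All 10 keratinocyte markers, such as Krt5 and Krt14, lay above the median of every array. Array medians lay between 4.64 and 4.78 and 75th percentiles between 6.93 and 7.21. Differentiated replicate 2 was lowest in both, and its maximum was 13.67, against 14.42 to 14.58 on the other arrays. The hybridization controls lay between 9.03 and 11.3, with A-C/EBP replicate 2 highest. Across genes, which are not independent of each other, replicates correlated with r between 0.990 and 0.996. In bulk RNA, fewer cells of a type and less RNA per cell cannot be told apart.

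C/EBP proteins have a basic region that contacts DNA and a leucine zipper through which they pair with each other and with some other basic leucine zipper (bZIP) proteins. C/EBPα, encoded by Cebpa, is known for growth arrest and differentiation of liver, fat, myeloid and epidermal cells. C/EBPβ acts in differentiation and inflammation, and its activating and inhibiting forms are translated from 1 mRNA, so that an mRNA level does not tell them apart. C/EBPδ is best known from the acute phase response. C/EBPγ lacks the activating part of its relatives and pairs with them or with ATF4. In epidermis, C/EBPα and C/EBPβ are known from the suprabasal layers. None of the values below measures protein or DNA binding.

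Promoter sequences are shown because C/EBP genes are known to be controlled through their own promoters and because 5-azacytidine acts on methylated CG dinucleotides. RefSeq promoters (mouse build GRCm38.p6) were matched by symbol for 3 of the 5 members. Each run is the 250 bases before the annotated start, 5′ to 3′ along the gene, with the matches to searched motifs in capitals.
Cebpa: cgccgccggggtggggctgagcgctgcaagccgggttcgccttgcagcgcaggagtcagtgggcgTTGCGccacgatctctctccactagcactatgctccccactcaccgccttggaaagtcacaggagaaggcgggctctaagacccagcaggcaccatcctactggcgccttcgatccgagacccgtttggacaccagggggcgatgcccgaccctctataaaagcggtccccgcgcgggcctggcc
Cebpb: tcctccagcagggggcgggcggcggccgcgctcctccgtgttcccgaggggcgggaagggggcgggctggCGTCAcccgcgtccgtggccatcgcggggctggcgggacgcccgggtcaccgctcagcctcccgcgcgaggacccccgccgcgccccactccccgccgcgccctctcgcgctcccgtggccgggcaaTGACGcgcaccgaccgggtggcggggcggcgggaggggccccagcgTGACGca
Cebpg: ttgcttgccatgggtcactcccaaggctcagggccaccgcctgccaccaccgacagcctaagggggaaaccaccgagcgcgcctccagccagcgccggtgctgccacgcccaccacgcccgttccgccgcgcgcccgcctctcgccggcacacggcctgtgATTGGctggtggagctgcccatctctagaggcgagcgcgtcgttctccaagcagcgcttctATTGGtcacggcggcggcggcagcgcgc
They lie at chr7:35119043-35119292 on the plus strand (Cebpa), chr2:167688665-167688914 on the plus strand (Cebpb) and chr7:35056567-35056816 on the minus strand (Cebpg). In the same build the genes span chr7:35119293-35121928 (Cebpa), chr2:167688915-167690432 (Cebpb), chr16:15887286-15889545 (Cebpd) and chr7:35046422-35056566 (Cebpg), so that Cebpa and Cebpg are neighbours on chromosome 7.

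All of the printed promoters were rich in CG dinucleotides. The Cebpb promoter held 41 and was 81.6% G or C, with more CG dinucleotides than 98.9% of the 32851 promoters searched. The Cebpg promoter held 29, more than 93.2% of promoters, and the Cebpa promoter held 22, more than 85.2%. The median promoter held 6. Methylation at these promoters was not measured by the arrays.

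Motifs were searched on both strands. The full C/EBP palindrome TTGCGCAA, present in 0.2% of all promoters, was in none of the printed runs, and its core TTGCG, present in 14.5%, was in the Cebpa promoter alone, at position -185 from the start. The CREB and ATF core TGACG, present in 17.8% of promoters, occurred 3 times in the Cebpb promoter, at -180 (minus strand), -53 and -7. The full site TGACGTCA (1.5% of promoters) and the AP-1 site TGACTCA (4.5%) were in none. The CCAAT sequence, which gave the family its name and is mainly bound by NF-Y, was present in 33.8% of promoters and occurred 2 times in the Cebpg promoter, at -89 and -28 on the minus strand. Cores also count matches inside the full sites, and a match is a description of letters and not a bound site.

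The probe sets of a member did not all carry a signal. Cebpa had a single probe set. The Cebpb probe sets, 1418901_at and 1427844_a_at, moved together over the 10 arrays (r = 0.891, a description over arrays of 4 conditions). Of the Cebpd probe sets, 1456605_at lay between 4.02 and 4.68, below the median of every array, so that the gene mean understates differences seen by 1423233_at. Of the 3 Cebpg probe sets, 1425261_at lay below the array median on 9 of 10 arrays. The exception was A-C/EBP replicate 2, at 4.95. The Cebpg probe sets were only weakly related to each other over arrays (r = 0.140 to 0.195), as were those of Cebpd (r = -0.141).

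**Figure D1:**
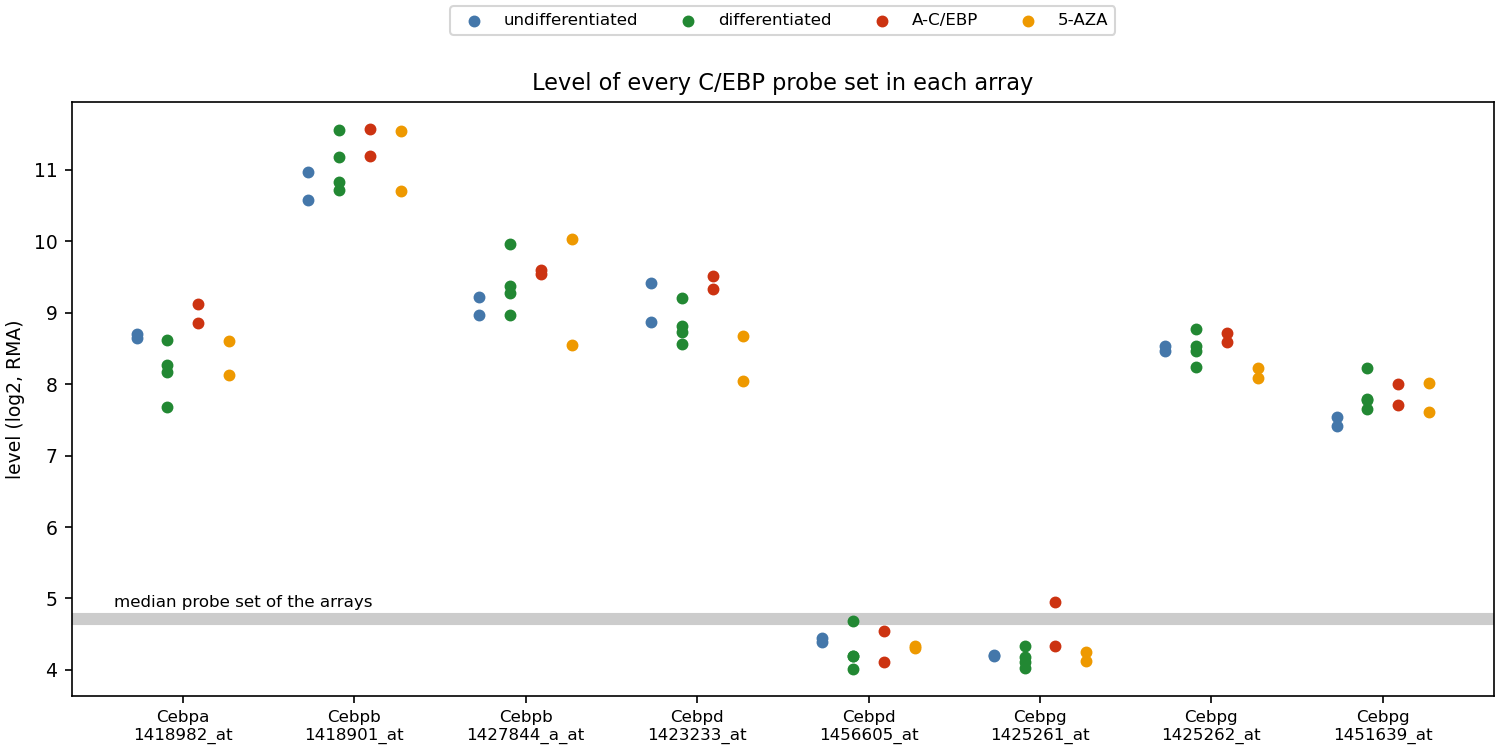
Log2 level of each of the 8 C/EBP probe sets on each of the 10 arrays, by condition, with the array medians (4.64 to 4.78) for reference. The Cebpd probe set 1456605_at lies under the median of every array, and the Cebpg probe set 1425261_at under all but 1.

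Cebpa was measured at 8.65 and 8.71 in undifferentiated keratinocytes. The differentiated replicates 1 to 4 read 8.17, 7.68, 8.27 and 8.62. The A-C/EBP arrays read 9.12 and 8.85 and the 5-AZA arrays 8.60 and 8.13. Every differentiated array was below both undifferentiated arrays, though replicate 4 only just, and below both A-C/EBP arrays, while the 5-AZA arrays fell within the differentiated range. The means were 8.68 ± 0.043 (SD, n = 2), 8.19 ± 0.39 (n = 4), 8.99 ± 0.19 (n = 2) and 8.37 ± 0.33 (n = 2) in that order of conditions.

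Cebpb gave undifferentiated values of 9.77 and 10.09. The differentiated replicates read 10.06, 10.28, 9.84 and 10.76. With A-C/EBP the values were 10.40 and 10.56, and with 5-AZA 10.78 and 9.62. Differentiated and 5-AZA arrays overlapped with every other condition. Both A-C/EBP arrays were above both undifferentiated arrays, which so few arrays can show with no difference. The 5-AZA arrays held both the highest and the lowest Cebpb value of the 10. The means were 9.93 ± 0.23 undifferentiated, 10.23 ± 0.39 differentiated, 10.48 ± 0.11 with A-C/EBP and 10.20 ± 0.82 with 5-AZA.

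Cebpd read 6.90 and 6.65 in undifferentiated cells as the mean of its probe sets. Differentiated cells gave 6.70, 6.50, 6.62 and 6.38, A-C/EBP 6.82 and 6.94, and 5-AZA 6.49 and 6.19. Both A-C/EBP arrays were above every differentiated and every 5-AZA array. The brighter probe set, 1423233_at, spread further, with 9.41 and 8.86 undifferentiated, 9.21, 8.81, 8.56 and 8.73 differentiated, 9.52 and 9.33 with A-C/EBP, and 8.67 and 8.05 under 5-AZA. On this probe set, too, both A-C/EBP arrays were above every differentiated and 5-AZA array.

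As the mean of its probe sets, Cebpg varied least among the members. Its values were 6.72 and 6.73 in undifferentiated cells, 6.83, 6.74, 7.03 and 6.76 in differentiated cells, 6.92 and 7.18 with A-C/EBP, and 6.69 and 6.75 under 5-AZA. The differentiated arrays lay above the undifferentiated arrays by as little as the second decimal. The A-C/EBP mean was the highest of the 4 conditions for all 4 members. That order turned for Cebpd against undifferentiated cells when undifferentiated replicate 2 was left out (a difference of -0.02) or on the dim probe set 1456605_at alone (-0.0855), for Cebpb against 5-AZA without 5-AZA replicate 2 (-0.31), and for Cebpg against differentiated cells on probe set 1451639_at alone (-0.0035).

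**Figure D2:**
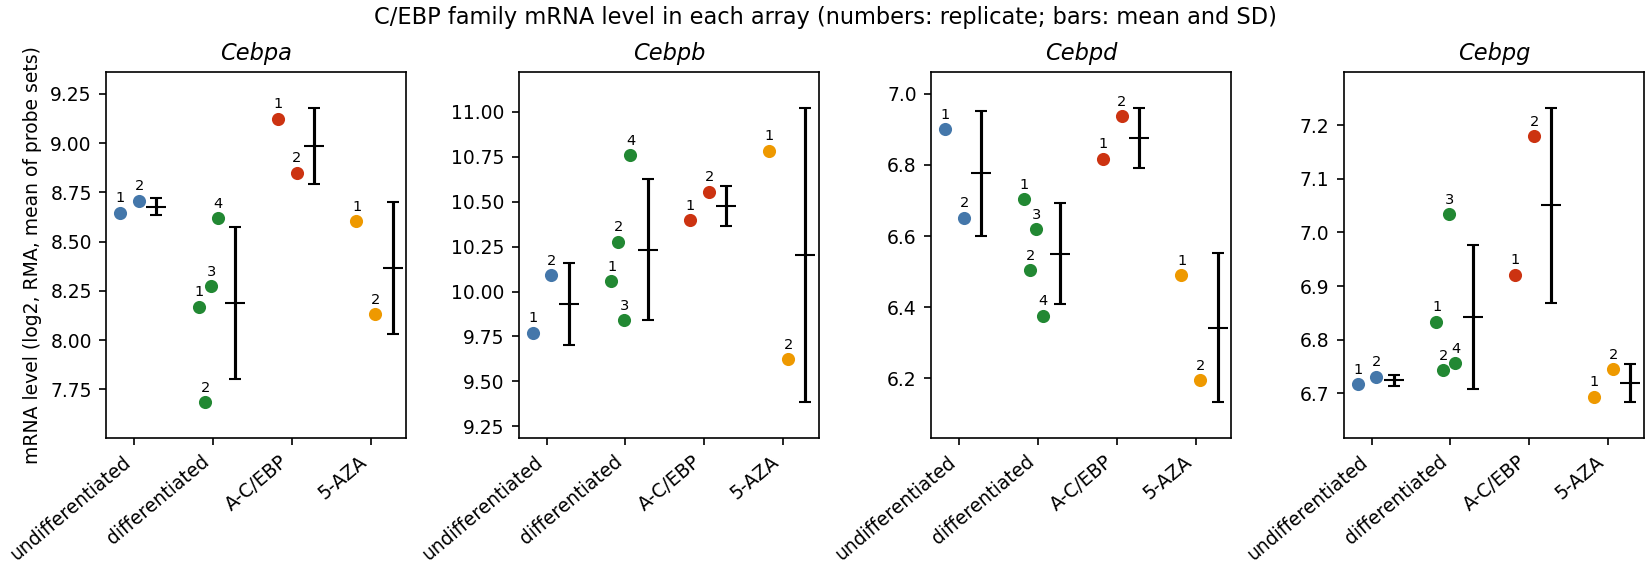
Log2 level, the mean over probe sets, of Cebpa, Cebpb, Cebpd and Cebpg on each array, by condition, with the mean and SD of each condition. Cebpa is lowest in differentiated cells (mean 8.19) and highest with A-C/EBP (8.99), and the 5-AZA arrays of Cebpb (10.78 and 9.62) span its whole range.

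Replicates of the same condition differed more for Cebpa and Cebpb than for most genes. The residual SD was 0.316 for Cebpa, larger than that of 92.2% of genes, and 0.447 for Cebpb, larger than that of 97.7%. Cebpd (0.154) and Cebpg (0.122) were near the median of all genes, 0.150. Both are means over weakly related probe sets, and their brighter probe sets spread more. Among differentiated arrays the SD was 0.276 on 1423233_at against 0.142 for the Cebpd mean. For Cebpg it was 0.217 on 1425262_at and 0.252 on 1451639_at against 0.134 for the mean, and 0.133 on the dim 1425261_at. Differences of Cebpb between conditions are thus bounded only within wide intervals.

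The comparison of differentiated with undifferentiated keratinocytes asks how calcium-induced differentiation changes mRNA levels, and no C/EBP member passed the test. Over all genes, 15.8% were called, and none of the 4 members was, nor had any an unadjusted p under 0.05, which 25.8% of all genes had. Cebpa differed by -0.49 (SE 0.23, 95% interval -0.998 to 0.02, limma adjusted p = 0.211). Cebpb differed by 0.30 (-0.39 to 1.00, limma adjusted p = 0.672), Cebpd by -0.23 (-0.52 to 0.07, limma adjusted p = 0.343) and Cebpg by 0.12 (-0.13 to 0.37, limma adjusted p = 0.638). Single arrays moved each of these. Cebpa was at -0.32 without differentiated replicate 2, the array with its lowest value and the lowest 75th percentile. With the 75th percentile as a covariate, chosen after seeing the data, Cebpa was at -0.31. Cebpg was at 0.0539 without differentiated replicate 3. Cebpb was at 0.13 without differentiated replicate 4, and at 0.14 and 0.46 without undifferentiated replicate 1 and 2. Cebpd was at -0.10 and -0.35 without undifferentiated replicate 1 and 2. The differentiated and undifferentiated arrays did not overlap for 2 of 4 members, Cebpa and Cebpg, against 34.1% of all genes. Of the Cebpg probe sets, only 1451639_at carried the difference, at 0.39 (limma adjusted p = 0.279 over all probe sets), while 1425262_at gave -0.00 and 1425261_at -0.03.

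A-C/EBP against differentiated keratinocytes asks what blocking the DNA binding of the family does to mRNA levels, here to those of the family itself. All 4 members had higher means with A-C/EBP, and none passed the test. Cebpa had the largest difference, 0.80 (SE 0.23, 95% interval 0.29 to 1.31, limma adjusted p = 0.125), a size exceeded by 2.50% of all genes. Both A-C/EBP arrays were above all 4 differentiated arrays. Whether the mRNA of A-C/EBP, which carries the zipper of a C/EBP, adds to the signal of any member's probe set was not tested. Cebpd differed by 0.33 (SE 0.13, 0.04 to 0.62, limma adjusted p = 0.294), and by 0.59 on its brighter probe set (SE 0.23, limma adjusted p = 0.346 over all probe sets). Cebpg differed by 0.21 (-0.04 to 0.46, limma adjusted p = 0.494), most of it on the dim probe set 1425261_at (0.47, against 0.15 on 1425262_at and -0.0035 on 1451639_at), and by 0.0794 without A-C/EBP replicate 2 or 0.34 without A-C/EBP replicate 1. Cebpb differed by 0.24 (-0.45 to 0.94, limma adjusted p = 0.850), and by 0.11 and 0.42 without differentiated replicate 3 and 4. In this comparison 2.06% of all genes were called, 271 up and 104 down, or 330 up and 206 down after quantile normalization. Before adjustment, 2 of 4 members and 13.6% of all genes were under 0.05. Arrays did not overlap for 2 of 4 members, Cebpa and Cebpd, against 21.4% of all genes.

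5-AZA against differentiated keratinocytes asks what inhibition of DNA methylation does, and no member passed the test. The differences were 0.18 for Cebpa (-0.33 to 0.69, limma adjusted p = 0.881), -0.03 for Cebpb (-0.73 to 0.67, limma adjusted p = 0.989), -0.21 for Cebpd (-0.50 to 0.08, limma adjusted p = 0.698) and -0.12 for Cebpg (-0.38 to 0.13, limma adjusted p = 0.828). None of the 4 members was called or had an unadjusted p under 0.05, and of all genes 0.286% were called and 9.1% were under 0.05 before adjustment. On single probe sets the differences were larger, at -0.47 for the brighter Cebpd probe set 1423233_at (limma adjusted p = 0.763 over all probe sets) and -0.35 for the Cebpg probe set 1425262_at (limma adjusted p = 0.664), on which both 5-AZA arrays (8.22 and 8.09) were below every differentiated array (8.24 to 8.76). Gene means overlapped for all 4 members, while they did not for 16.4% of all genes. Single arrays moved all of these values by over 1.5 times. Cebpd was at -0.36 and -0.0608 without 5-AZA replicate 1 and 2, and Cebpg at -0.0584 without differentiated replicate 3. Cebpa was at 0.42 without 5-AZA replicate 2, and at 0.0129 and 0.32 without differentiated replicate 2 and 4. For Cebpa the sign turned without 5-AZA replicate 1 (-0.06), and for Cebpb without 5-AZA replicate 2 (0.55) or differentiated replicate 4 (0.15). Cebpb was at -0.61 without 5-AZA replicate 1, and at -0.0882, -0.015 and -0.16 without differentiated replicates 1, 2 and 3. The differentiated arrays serve in each of these 3 comparisons, so the comparisons are not independent of each other.

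**Figure D3:**
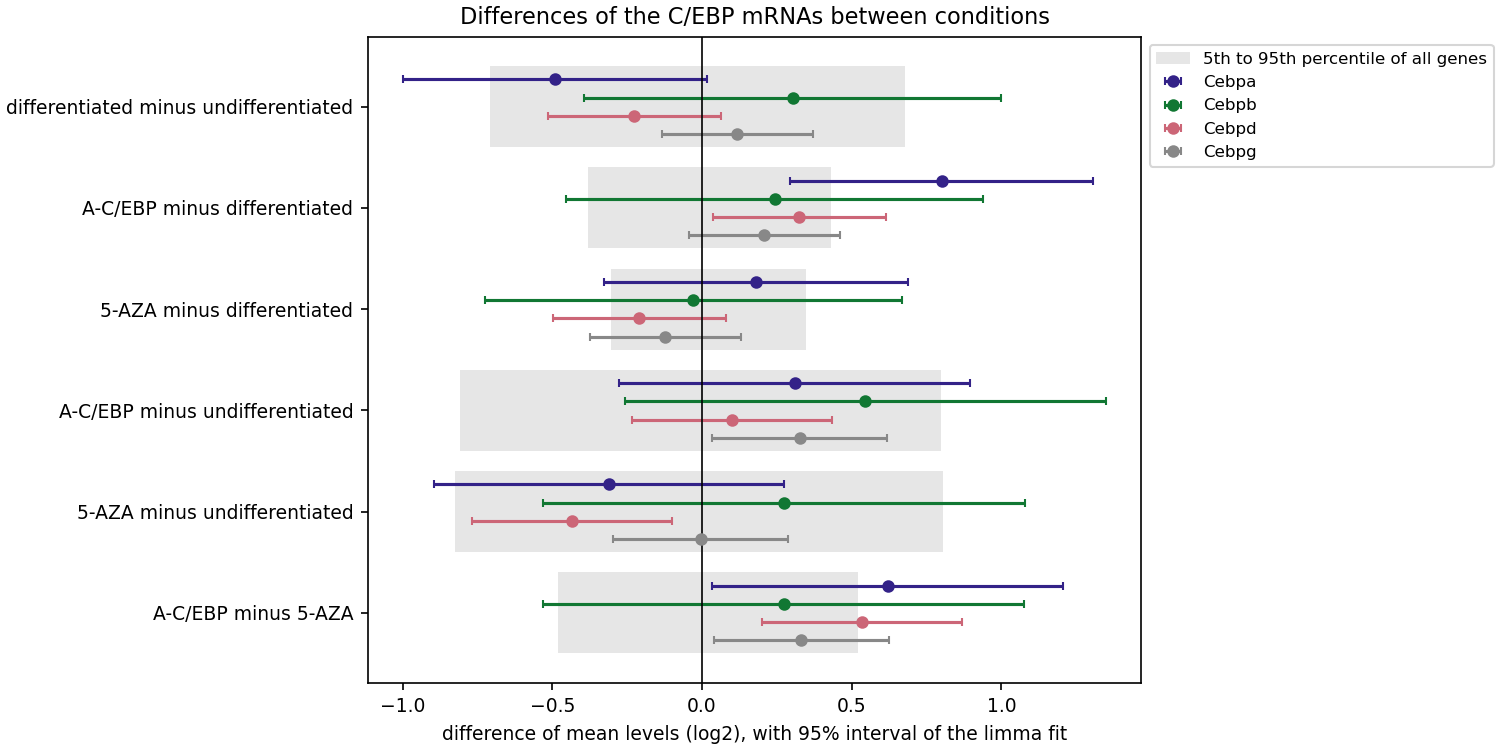
Difference in log2 level of each C/EBP member between every pair of conditions, with 95% intervals from limma and the 5th to 95th percentile of all genes. In the comparisons with the differentiated arrays, only the intervals of Cebpa (0.80) and Cebpd (0.33) with A-C/EBP exclude 0. Those of Cebpa, Cebpd and Cebpg for A-C/EBP minus 5-AZA also exclude 0. Against undifferentiated cells, those of Cebpd with 5-AZA and Cebpg with A-C/EBP do. No member passed in any pair after adjustment over 18193 genes.

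The other pairs of conditions were compared as well. Cebpd differed most between A-C/EBP and 5-AZA, by 0.53 (SE 0.15, 95% interval 0.20 to 0.87, limma adjusted p = 0.0988). On 1423233_at the same difference was 1.06 (SE 0.27, limma adjusted p = 0.0909 over all probe sets), and it passed at 1.06 (limma adjusted p = 0.0414 over genes) when probe sets below the median of every array were left out, a choice made after seeing the data. Cebpa was 0.62 higher (SE 0.26, limma adjusted p = 0.294) and Cebpg 0.33 higher (SE 0.13, limma adjusted p = 0.256) with A-C/EBP than with 5-AZA. In this pair none of the 4 members was called, with 3.19% of all genes called, and 3 were under 0.05 before adjustment, as were 15.4% of all genes. Against undifferentiated cells, Cebpd was at -0.43 with 5-AZA (SE 0.15, limma adjusted p = 0.0828), where 16.1% of all genes were called, and Cebpg at 0.33 with A-C/EBP (limma adjusted p = 0.141), where 15.6% were called. None of the 4 members was called in either, and each had 1 of 4 under 0.05 before adjustment, near the share of all genes (26.9% and 25.7%). Without 5-AZA replicate 2, the Cebpa difference between A-C/EBP and 5-AZA was 0.38, and Cebpd was at -0.29 with 5-AZA against undifferentiated cells. Without A-C/EBP replicate 2, both Cebpg differences were 0.20. In the main fit no pair of conditions, neighbours in the order of the condition means or not, passed the adjusted threshold for any member.

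The arrays differ in their 75th percentile, and those above and those at or below 7.1 each hold at least 1 array of every condition. A-C/EBP minus differentiated gave 0.73 and 0.87 for Cebpa, 0.28 and 0.37 for Cebpd, 0.13 and 0.29 for Cebpg, and -0.01 and 0.50 for Cebpb, in the arrays with the higher and the lower 75th percentile. The direction was the same in both sets for Cebpa, Cebpd and Cebpg and not for Cebpb. For Cebpa and Cebpd any split of the arrays gives that outcome, since both A-C/EBP arrays were above every differentiated array. For 5-AZA minus differentiated, Cebpb gave 0.38 and -0.43. Such sets hold 1 A-C/EBP and 1 5-AZA array each and allow no test of their own.

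Other cells express C/EBP genes, so their markers were read on the same arrays. Of 12 myeloid markers, 5 lay above the median of every array, namely Csf1r (6.25 to 7.49), Adgre1, Tyrobp (6.10 to 7.38), Cd68 (6.07 to 7.06) and Lyz2 (6.83 to 9.18). Another 5 lay below it on every array, among them the pan-leukocyte Ptprc (3.54 to 3.91) and Itgam (3.66 to 3.93). The summed myeloid level was 9.57 to 10.39 in differentiated, 9.80 to 10.26 in A-C/EBP, 9.70 to 9.96 in undifferentiated and 9.50 to 9.59 in 5-AZA arrays. Of 6 measured adipocyte markers, Adipoq, Lep, Pparg and Cidec were below the median of every array, while Lpl (4.22 to 6.43) was above it on 9 arrays and Fabp4 (3.56 to 5.75) on 2. Their summed level was 7.03 to 7.53 undifferentiated, 7.01 to 7.30 differentiated, 6.38 to 6.49 with A-C/EBP and 6.91 to 6.94 under 5-AZA. Of 9 fibroblast markers, 5 lay above every array's median and 1 below, and the sums were 10.24 to 10.64 undifferentiated, 9.75 to 10.84 differentiated, 9.11 to 10.26 with A-C/EBP and 10.84 to 11.30 with 5-AZA. Of 6 melanocyte markers, 5 lay above every median, with sums of 12.28 to 12.51, 11.77 to 12.38, 12.08 to 12.79 and 12.55 to 12.59 in the same order. The part of any of these cell types in the values of the C/EBP members was not tested.

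Among 9095 genes with a mean level above the median gene, those most like each member over the 10 arrays were named by Pearson r, as a description. The genes most like Cebpa were Ddr1 (0.943), a receptor kinase for collagen, Tbc1d16 (0.937) and Cog8 (0.934), a Golgi subunit. Nearest to Cebpb were Lgals9 (0.937), a galectin, Csrnp1 (0.899) and Nr0b2 (0.884), a nuclear receptor without a DNA-binding domain. For Cebpd they were Pank2 (0.932), a kinase of coenzyme A synthesis, Tusc3 (0.929) and Elovl6 (0.929), a fatty acid elongase. For Cebpg they were Ccdc32 (0.980), Skp1 (0.957), a ubiquitin ligase subunit, and Tmem30a (0.939). The arrays share conditions, and the highest of so many correlations are high by selection.

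Of 18 measured bZIP factors that are dimer partners or relatives of the C/EBPs, 1 rose, 1 fell and 16 did not pass in differentiation, where 6.64% of all genes rose and 9.14% fell, with a median difference of 0.04 against -0.01 over all genes. Atf3, a stress-induced factor, was at 5.93 on both undifferentiated arrays and at 6.97, 6.87, 7.41 and 7.25 in differentiated cells, a rise of 1.20 (SE 0.25, limma adjusted p = 0.00818). Its A-C/EBP arrays stood highest, at 7.61 and 8.65, with a difference of 1.01 from differentiated cells (limma adjusted p = 0.0769), and the 5-AZA arrays read 6.84 and 6.75. Fosl1, an AP-1 subunit, fell by 1.03 in differentiation (limma adjusted p = 0.0292). Both calls rest on few arrays. The Atf3 call ended without either undifferentiated replicate (1.19 and 1.20, limma adjusted p = 0.0686 and 0.0582), and the Fosl1 call ended without either undifferentiated replicate (-1.19 and -0.88) or differentiated replicate 2 (-1.05). None of the 18 passed with A-C/EBP (median -0.01, all genes 0.01) or with 5-AZA (0.01, all genes 0.04). Ddit3, whose product pairs with C/EBPs and blocks them, differed by 0.18 on differentiation, by -0.09 under A-C/EBP and by 0.43 under 5-AZA, and Atf4, a partner of C/EBPγ, by -0.23, 0.07 and 0.15.

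Of 24 listed genes known to regulate C/EBP genes or proteins, 19 were measured, and the others are not analysed here. In differentiation 1 rose, 1 fell and 17 did not pass (median -0.07), where 6.64% of all genes rose and 9.14% fell. Egr2, a zinc finger factor that acts upstream of Cebpb in fat cell differentiation, rose by 4.60 (SE 0.27, limma adjusted p = 1.16e-05) from 4.30 and 4.18, which lie below the array medians, so that the fold is a poor measure of the rise. Il6ra, the interleukin 6 receptor, fell by 0.92 (limma adjusted p = 0.000373), and by 0.36 with no call on its brightest probe set (limma adjusted p = 0.0826). With A-C/EBP 1 rose and 18 did not pass (median 0.01), where 1.49% of all genes rose and 0.572% fell. With 5-AZA none of the 19 passed (median -0.00), where 0.17% of all genes rose and 0.115% fell. Il6st, the signalling chain shared by interleukin 6 family receptors, read 7.98 and 7.86 with A-C/EBP and 7.47, 7.04, 7.39 and 7.27 in differentiated cells, a rise of 0.63 (SE 0.13, limma adjusted p = 0.0383). That call ended in 15 of 25 alternatives, at 0.54 to 0.69, among them the omission of any single array except differentiated replicate 1. Stat3, which carries the signal of that receptor to the nucleus and can act on Cebpd, differed by 0.45 with A-C/EBP (limma adjusted p = 0.170), and Trib1, which directs C/EBPα to degradation, by -0.60 (limma adjusted p = 0.168).

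Of 18 genes on which C/EBP proteins are known to act, in epidermis or in inflammation, 5 rose, none fell and 13 did not pass in differentiation, with a median difference of 0.56, where 6.64% of all genes rose and 9.14% fell. The rises were Defb4, Slpi, Cdkn1a, Ivl and Dsc2. Defb4, an antimicrobial peptide, rose by 3.77 (SE 0.65, limma adjusted p = 0.00296). It read 4.69 and 5.09 undifferentiated, near the array medians, so that the fold is a poor measure of the rise. Slpi, a protease inhibitor, rose by 2.71 (SE 0.56, limma adjusted p = 0.00784). Cdkn1a, the cell cycle inhibitor p21, rose by 0.92 (SE 0.13, limma adjusted p = 0.00109). Dsc2, a desmosomal cadherin of the list that is named here after its value was seen, rose by 0.82 (SE 0.18, limma adjusted p = 0.0128). Without undifferentiated replicate 1 the calls of Slpi (2.41) and Dsc2 (0.83) ended, and without undifferentiated replicate 2 that of Dsc2 (0.80). The early differentiation keratins Krt1 and Krt10 differed by -1.29 (limma adjusted p = 0.0670) and -1.21 (limma adjusted p = 0.0758). Undifferentiated replicate 2 stood far above replicate 1 in both. Krt1 read 9.18 and 10.98 undifferentiated and 9.17, 8.87, 8.38 and 8.75 differentiated. Krt10 read 8.33 and 9.96 undifferentiated and 8.10, 7.97, 8.03 and 7.60 differentiated.

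With A-C/EBP, 5 of the 18 target genes had differences above 0, 1 fell and 17 did not pass. Over all genes, 1.49% rose and 0.572% fell, and the median was 0.01 against -0.41 in the list. Ptgs2, the inducible cyclooxygenase, fell by 1.25 (SE 0.24, limma adjusted p = 0.0285), a call that ended without either A-C/EBP replicate (-0.97 and -1.54) or without differentiated replicate 1, 2 or 4 (-1.18, -1.18 and -1.26). The largest differences, chosen for naming after their values were seen, belonged to antimicrobial and inflammatory genes and did not pass. They were -2.31 for S100a8 (limma adjusted p = 0.123), -2.27 for Defb4 (limma adjusted p = 0.126), -2.12 for S100a9 (limma adjusted p = 0.160) and -1.99 for Slpi (limma adjusted p = 0.118). A-C/EBP replicate 2 stood apart from replicate 1 in each, at 8.74 against 11.67 for S100a8, 8.99 against 12.14 for S100a9, 8.94 against 11.69 for Slpi and 5.49 against 7.30 for Defb4. Both were below every differentiated array. Krt1 differed by 1.79 (limma adjusted p = 0.0643) and Krt10 by 1.07 (limma adjusted p = 0.263), opposite in sign to most of the list. With 5-AZA none of the 18 rose, 1 fell and 17 did not pass (median -0.20, all genes 0.04), where 0.17% of all genes rose and 0.115% fell.

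Ivl, which encodes the cornified envelope precursor involucrin, differed between more conditions than the C/EBP genes did. It read 9.72 and 10.38 undifferentiated, 11.11, 10.78, 10.72 and 10.79 differentiated, 11.59 and 11.63 with A-C/EBP, and 9.50 and 9.45 under 5-AZA. All differentiated arrays were above all undifferentiated and 5-AZA arrays and below both A-C/EBP arrays. It rose by 0.80 in differentiation (SE 0.17, limma adjusted p = 0.0104), fell by 1.38 with 5-AZA (SE 0.17, limma adjusted p = 0.0240) and differed by 0.76 with A-C/EBP (limma adjusted p = 0.0577). The rise ended as a call without undifferentiated replicate 1 (0.47, limma adjusted p = 0.126). The fall did so without either 5-AZA replicate (-1.40 and -1.35) or without differentiated replicate 1, 2 or 4 (-1.29, -1.40 and -1.40).

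**Figure D4:**
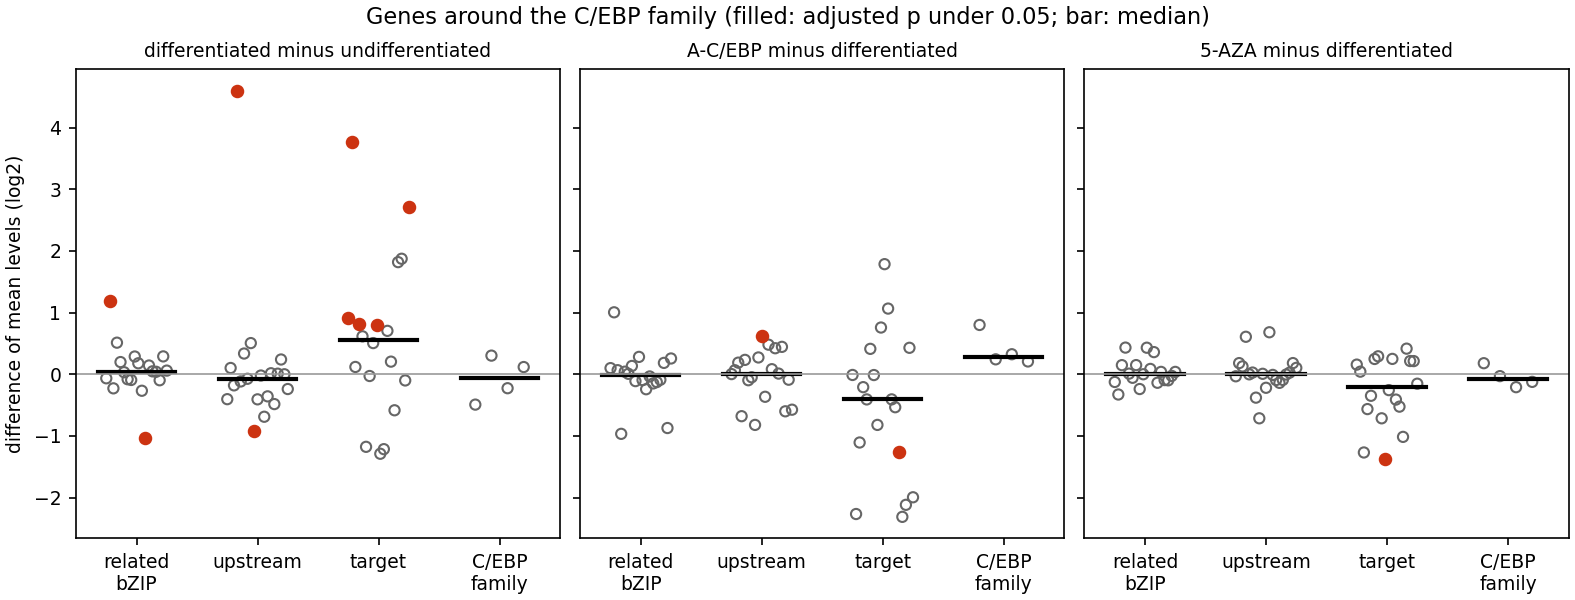
Difference in log2 level of each gene of the related bZIP, upstream and target lists, and of the C/EBP members, in the 3 comparisons. The genes called by limma are marked and the medians drawn. The target list has a median of 0.56 in differentiation, of -0.41 with A-C/EBP and of -0.20 with 5-AZA. The medians of the related bZIP and upstream lists stay between -0.07 and 0.04. All 4 members lie above 0 with A-C/EBP.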

How the data were processed

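Arrays of 10 samples were used. The deposited log2 values are the authors' output of RMA, run in Affymetrix Expression Console as named in the submitters' processing notes, without versions. RMA corrects background, normalizes between arrays and summarises each probe set. No second normalization was applied. The array controls (64) were left out, and probe sets were named through the platform annotation, where 34945 carry 1 symbol, 932 several and 9160 none. Single-symbol probe sets were averaged per gene, which gave 18193 genes, 9010 with more than 1 probe set. Levels are meant to be comparable between arrays, not between genes, though differentiated replicate 2 kept the lowest median, 75th percentile and maximum.

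Groups came from the sample labels. limma 3.58.1 in R 4.3.3 was fitted to all 10 arrays with a mean per condition (6 residual degrees of freedom, prior 3.854), and p-values of its moderated two-sided tests were adjusted over all genes (Benjamini-Hochberg). The fit was tested on simulated data. For each marker list the level is the log2 of the summed linear values. The members and lists were chosen with earlier results of these data known. Genes are named as members, as the 3 with the highest r to a member, or as up to 4 called genes of a list. Ddit3, Atf4, Trib1, Stat3, Ivl, Krt1 and Krt10 were named in any case. Outside this rule, Dsc2, S100a8 and S100a9 were named after their values were seen. Alternatives covered normalization, the choice of probe sets and arrays, a replicate block, covariates, an ordinary t-test of each gene and omission of each array in turn. That adjusted t-test is not the paper's procedure. For mRNA changes in differentiation the paper gives a threshold of 0.5 on its log scale and names no test per gene. The depth of an array has no read count, and the number of arrays sets the precision. Samples of A-Fos and immunoprecipitation data are not analysed here.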

Additional observations from a re-analysis of the deposited data

How the results depend on the processing

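Each of the 24 pairs of a member and a comparison was recomputed under 25 alternatives. Of these 600 values, 14 had the other sign and 6 passed the threshold, 5 of them with the replicate block. Many alternatives, such as the t-test or omission of an array of another condition, leave the difference itself unchanged. Their sign could not turn, so 14 of 600 does not measure stability. None passed by an ordinary t-test of each gene after adjustment. With so few arrays a missed threshold says nothing about equality, and probe sets near the array median limit what Cebpd and Cebpg can show.

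The labels give replicate numbers 1 and 2 in every condition, but no shared culture or batch, and deviations of same-numbered arrays correlated at r = 0.0931 to 0.43. With the replicate block, Cebpa gave -0.75 in differentiation (limma adjusted p = 0.0103) and 1.06 with A-C/EBP (0.0130), Cebpd -0.43 for 5-AZA minus undifferentiated (0.0412) and 0.53 for A-C/EBP minus 5-AZA (0.0434), and Cebpa 0.62 for the latter (0.0439). By construction the blocked Cebpa values equal those from differentiated arrays 1 and 2 alone, which gave limma adjusted p = 0.0652 and 0.0798 without the block. Differentiated arrays 3 and 4 alone gave a smaller Cebpa difference in differentiation, -0.23 (limma adjusted p = 0.572). With A-C/EBP the lowest Cebpa difference of any alternative was 0.54. The block turned Cebpb to 0.0370 with 5-AZA, and called 773 genes with A-C/EBP, 398 with 5-AZA and 1384 between the latter conditions.

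Leaving out probe sets below the median of every array, added after seeing the data, took Cebpd to 1.06 for A-C/EBP minus 5-AZA. Signs turned for Cebpg in differentiation on the brightest probe set, 1425262_at (-0.00083), and on 1425261_at (-0.0325), and with A-C/EBP on 1451639_at (-0.0035). With 5-AZA against differentiated cells they turned for Cebpa with differentiated arrays 3 and 4 only (-0.0797), for Cebpb on its brightest probe set, 1418901_at (0.0465), or with arrays 1 and 2 only (0.0370), for Cebpg on 1425261_at (0.0203) and for Cebpd on 1456605_at (0.0523). Cebpg with 5-AZA against undifferentiated cells turned under quantile normalization (0.0221). Without single arrays, the ranges that crossed 0 were, with 5-AZA against differentiated cells, -0.0560 to 0.417 for Cebpa and -0.61 to 0.55 for Cebpb, against undifferentiated cells -0.31 to 0.85 for Cebpb and -0.0301 to 0.0210 for Cebpg, for A-C/EBP minus 5-AZA -0.31 to 0.85 for Cebpb, and for A-C/EBP minus undifferentiated -0.0244 to 0.225 for Cebpd. The causes were not tested.

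Counts of called genes moved as well. In differentiation 1863 genes were called with differentiated arrays 1 and 2 only, and 864 by the adjusted t-test of each gene. As probe sets in place of genes, 4789 were called. Without single arrays the counts were 1435 (without undifferentiated replicate 1) to 2891, with 1835 without undifferentiated replicate 2. With A-C/EBP the counts were 120 with arrays 1 and 2 only, 80 with arrays 3 and 4 only, 722 with the 75th percentile as a covariate, 0 by the adjusted t-test and 54 (without A-C/EBP replicate 2) to 362 without single arrays, with 241, 221 and 199 without differentiated replicates 1, 2 and 4, and 1227 genes differed by more than 0.5 with no test. With 5-AZA they were 24 after median centring, 24 with only the compared conditions, 17 and 0 with arrays 1 and 2 or 3 and 4 only, 80 with the hybridization controls and 166 with the 75th percentile as covariates, 0 by the adjusted t-test, 22 probe sets, and 2 (without 5-AZA replicate 2) to 57 without single arrays, with 16 without 5-AZA replicate 1, 7, 10 and 15 without differentiated replicates 1, 2 and 4 and 31 without either undifferentiated replicate, and 724 differed by more than 0.5. The adjusted t-test, which estimates the spread gene by gene from so few arrays, called 0 genes in the remaining pairs too. For A-C/EBP minus 5-AZA, 96 were called with only these conditions and 1029 with the 75th percentile, a covariate chosen after seeing the data.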
